A study of Homo sapiens with 10 samples.

Results

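The comparison described here is that of FaDu cells transfected with miR-7 against FaDu cells transfected with miR-NC, for every array probe that names a single gene. It takes 6 of the 10 arrays of the series, 3 titled FaDu miR-7 and 3 titled FaDu miR-NC, and 30112 of the 47230 probes on the FaDu arrays, which name 20046 genes. FaDu is an established line of squamous carcinoma of the human pharynx. It received 30 nM of precursor, either miR-7 or the negative control miR-NC, and RNA was taken 24 h later. The labels call the arrays of a group biological replicates. Each group is 1 line in transient culture with no untransfected arm, and the share of cells that took up a precursor was not measured on the arrays. The rest of the series is the line HN5, on 4 arrays of another type.

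Levels are log2 intensities after background correction and quantile normalization, and a gene stands for its brightest probe that was detected, with a detection p under 0.01, in at least 1 group on each of its arrays. This left 9997 genes, of which 9357 were detected on all 6 arrays. Median intensity ran from 114.4 to 148.9 per array, and 16034 to 17424 probes per array were detected. Arrays of 1 group correlated at 0.994 to 0.996 and arrays of unlike groups at 0.975 to 0.978 over 14936 probes detected on all arrays, and the first principal component, with 78.5% of the variance, separated the groups. Changes are miR-7 minus miR-NC as labelled, tested with limma, with p-values adjusted over the 9997 genes (Benjamini-Hochberg). Precision is set by how few arrays there were. Of the squamous and simple epithelial markers looked up, 12 of 12 with a named probe were tested, while 0 of 10 fibroblast markers were detected. Of the 12 leukocyte and endothelial markers with a named probe, 4 were tested and 8, among them PTPRC, CD3E, PECAM1 and KDR, were not detected. The 4 tested were the leukocyte markers CD14 and CD68 and the endothelial markers VWF and CDH5. CD14 and CD68 were detected on all 6 arrays and passed as lower, with log2 fold changes of -0.39 and -0.30.

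MicroRNAs are short RNAs that guide Argonaute proteins to messenger RNAs, mostly by pairing of the seed, a short stretch near the 5′ end, with sites in the 3′ untranslated region. A paired transcript is translated less and often decays faster. miR-7 is conserved from flies to humans, and its earlier reported human targets include EGFR and parts of the signaling chain below it. EGFR is the receptor tyrosine kinase that drives growth of many head and neck carcinomas. The mature miR-7-5p is shown because its seed (bases 2 to 8, in capitals) defines the transcripts that it pairs with. RefSeq (GRCh38.p14) places the same 24 bases at MIR7-1 (chr9:83969811-83969834, minus strand) and MIR7-3 (chr19:4770700-4770723, plus strand).
hsa-miR-7-5p: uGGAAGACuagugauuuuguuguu

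The DNA letters of a transcript that pair with this seed are GTCTTCC. Transcript ends were not analysed here, so that no gene below is called a site-bearing target. Probes for the miR-7 hairpins give no reading of the transfected precursor. MIR7-2 and MIR7-3 were detected on 0 of 6 arrays. MIR7-1 was detected on 1 of the 3 miR-7 arrays and on 0 miR-NC arrays, at log2 levels of 5.17, 4.96 and 5.30 with miR-NC and 5.62, 4.87 and 4.85 with miR-7, which overlap.

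EGFR was higher on the arrays labelled miR-7. Its log2 level was 7.91, 7.98 and 7.94 on the miR-NC arrays and 9.61, 9.48 and 9.46 on the miR-7 arrays. The groups did not overlap, and the difference was 2.98-fold (log2 fold change 1.57, standard error 0.071, adjusted p = 2.64e-06, n = 3 arrays per group, limma). This direction is opposite to the one in which the study describes EGFR in FaDu cells, and the study's list of genes lower with miR-7 in FaDu also runs opposite to the array labels. Of 357 names on that list 292 were tested here, and of these 288 passed the test with a rise as labelled, 0 with a fall, and the median log2 fold change was 1.09. That list was chosen on these same arrays, so that it is no independent evidence of either direction. All changes below follow the labels. Each FaDu change has the other sign if the FaDu labels are exchanged, and the comparison with HN5 is given both ways.

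The 3 detected EGFR probes differed in size. The brightest, with a mean log2 level of 8.73, changed by 1.57, a second by 0.45 (adjusted p = 0.00774, limma over all probes kept) and the dimmest by 0.18 (adjusted p = 0.286). With the mean of the 3 probes, the log2 fold change of EGFR was 0.73 (adjusted p = 0.000224). TGFA, which encodes the EGFR ligand transforming growth factor alpha, had log2 levels of 7.07, 6.89 and 7.09 on the miR-NC arrays and 8.51, 8.27 and 8.38 on the miR-7 arrays. It was 2.58-fold higher with no overlap (log2 fold change 1.37, standard error 0.09, adjusted p = 1.52e-05), and its second probe changed by 1.15.

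Falls and rises were close in number across the genome, while the rises were larger. Quantile normalization and median scaling both level the arrays, so that a shift of all genes in 1 direction could not be seen. The near balance in number is in part set by them. Of 9997 genes, 2176 (21.8%) were lower and 2003 (20%) higher with miR-7 at an adjusted p under 0.05, 41.8% in either direction. At an unadjusted p under 0.05 the counts were 2651 and 2356. The thresholds that the study's methods state (unadjusted p of 0.05 or less and at least 1.5-fold) took 531 genes (5.31%) as lower and 728 (7.28%) as higher. The 3 miR-7 arrays lay below all miR-NC arrays in 28.5% of genes and above them in 25% of genes. The median log2 fold change of all genes was -0.03, with a 5th percentile of -0.60 and a 95th percentile of 0.73, and the median standard error was 0.084. With each array centred on its median instead of quantile normalization, 1480 genes were lower and 1221 higher. By the study's thresholds, the counts were 205 and 385 without background correction, and 129 and 288 with the authors' own log2 values.

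Most called changes were small, with a median fold of 1.33 among the lower and 1.39 among the higher genes. The balance turned with size. At least 2-fold, 95 called genes were lower and 266 higher, at least 3-fold 11 and 61, and at least 4-fold 1 and 21. At least 8-fold, 3 genes were higher and 0 lower. The excess of large rises held when the genes were split by brightness into 3 parts of 3332 or 3333, with 97 higher against 51 lower at 2-fold in the dimmest genes, 110 against 33 in the middle and 59 against 11 in the brightest. By chromosome, the share of genes higher ran from 13.3% on chromosome 18 to 23.8% on chromosome 1, and the share lower from 16.5% on chromosome 19 to 27.7% on chromosome 10.

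**Figure D1:**
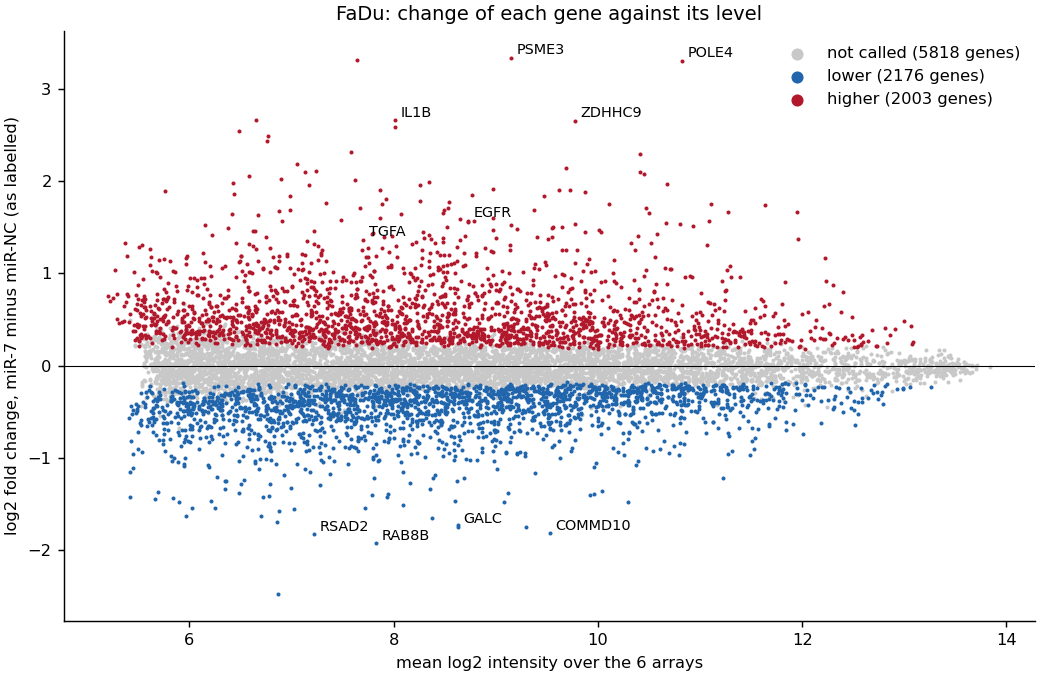
Change of each of the 9997 FaDu genes (log2 fold change, miR-7 minus miR-NC as labelled) against its mean log2 intensity over the 6 arrays. Blue points are the 2176 genes lower and red points the 2003 higher at an adjusted p under 0.05, and the red cloud reaches farther from 0 than the blue one over most of the range.

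The 12 largest rises and the 12 largest falls named below were picked among called genes detected on all 6 arrays whose groups did not overlap. The lack of overlap in them is thus set by the choice. The 2 largest rises were in PSME3 and POLE4. PSME3 encodes the PA28 gamma activator that caps the proteasome in the nucleus. Its log2 level was 7.44, 7.34 and 7.67 on the miR-NC arrays and 10.84, 10.79 and 10.83 on the miR-7 arrays, 10.1-fold higher (log2 fold change 3.34, standard error 0.092, adjusted p = 5.57e-07), and its second probe changed by 3.29. POLE4, a histone-fold subunit of DNA polymerase epsilon, stood at 9.12, 9.14 and 9.26 with miR-NC and 12.56, 12.50 and 12.38 with miR-7. It rose 9.89-fold (log2 fold change 3.31, standard error 0.078, adjusted p = 4.81e-07). In both genes the lowest miR-7 array was far above the highest miR-NC array. CRTAP, a partner of collagen prolyl hydroxylases that is named here after its value was seen, since it also passed 8-fold, was detected on 2 of 3 miR-NC arrays and changed by 3.32.

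IL1B, the cytokine interleukin 1 beta, and ZDHHC9, a palmitoyltransferase whose known substrates include Ras proteins, came next. IL1B had levels of 6.73, 6.76 and 6.55 on the miR-NC arrays and 9.46, 9.24 and 9.33 on the miR-7 arrays and was 6.34-fold higher (log2 fold change 2.66, standard error 0.088, adjusted p = 1.08e-06). ZDHHC9 had levels of 8.38, 8.46 and 8.49 on the miR-NC arrays and 11.12, 11.01 and 11.18 on the miR-7 arrays and was 6.32-fold higher (log2 fold change 2.66, standard error 0.074, adjusted p = 5.57e-07). The dimmer ZDHHC9 probe changed by 1.57. TPGS2, a subunit of the tubulin polyglutamylase complex, rose by 2.59 on the log2 scale, with levels of 6.73, 6.74 and 6.70 with miR-NC and 9.42, 9.28 and 9.23 with miR-7.

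The other 7 of the 12 largest rises lay between 2.11 and 2.31 on the log2 scale. SLC35A4, of the nucleotide sugar transporter family, rose from 6.23, 6.45 and 6.59 to 8.83, 8.66 and 8.73. LITAF, a membrane protein of late endosomes and lysosomes, rose by 2.29, and PIGH, a subunit of the enzyme that starts the synthesis of the GPI anchor, by 2.19. BCL2L12, a BCL2-like protein that restrains apoptosis, rose by 2.15, and its other 2 probes by 2.24 and 1.33. MXRA5, a secreted protein of matrix remodelling, and SMARCD1, the BAF60A subunit of the SWI/SNF chromatin remodelling complex, each rose by 2.11. RNF5, a ubiquitin ligase of the endoplasmic reticulum, rose by 2.11, but a pseudogene with nearly the same sequence, RNF5P1, has a probe that was detected with miR-7 only, and the share of each in the signal is uncertain.

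**Figure D2:**
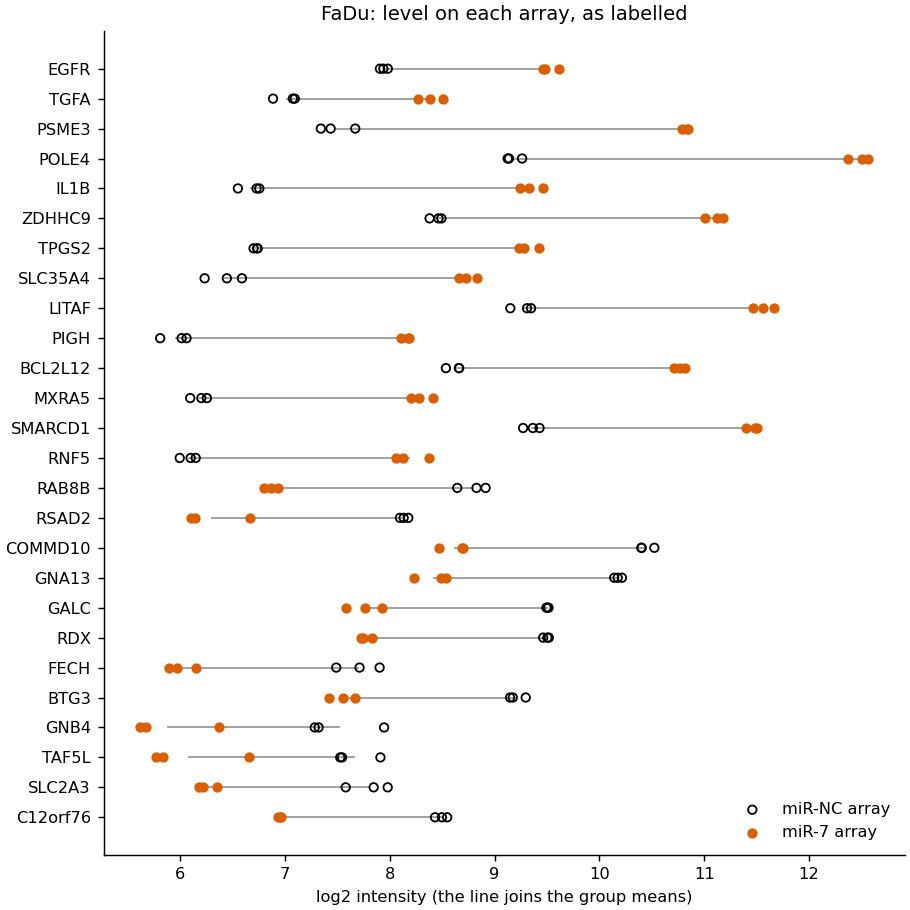
Log2 intensity of EGFR, TGFA and the 12 genes with the largest rise and the 12 with the largest fall on each FaDu array (open circles miR-NC, filled orange circles miR-7, 3 arrays each, the line joining the group means). In none of the 26 genes do the circles of the groups overlap, which for the 12 rises and 12 falls was a condition of their choice. GNB4, TAF5L and RSAD2 have 1 miR-7 array above the other 2.

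The 12 largest falls included genes of membrane traffic, G protein signaling and lipid and heme metabolism. RAB8B, a small GTPase of vesicle transport to the plasma membrane, had log2 levels of 8.64, 8.91 and 8.83 on the miR-NC arrays and 6.94, 6.80 and 6.87 on the miR-7 arrays, a 3.8-fold fall (log2 fold change -1.93, standard error 0.087, adjusted p = 2.64e-06). RSAD2, which encodes the antiviral enzyme viperin, had levels of 8.10, 8.18 and 8.13 on the miR-NC arrays and 6.67, 6.14 and 6.10 on the miR-7 arrays, a 3.56-fold fall (log2 fold change -1.83, standard error 0.14, adjusted p = 3.10e-05). The first miR-7 array of RSAD2 was higher than the other 2, but still below every miR-NC array. COMMD10, of a family that works in endosomal sorting, fell by 1.82, from 10.40, 10.52 and 10.40 to 8.70, 8.47 and 8.69, and its second probe by 2.00.

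GNA13, a G protein alpha subunit, stood at 10.14, 10.17 and 10.21 with miR-NC and 8.54, 8.49 and 8.23 with miR-7, 3.37-fold lower (log2 fold change -1.75, standard error 0.091, adjusted p = 4.55e-06). GALC, the lysosomal galactosylceramidase, stood at 9.51, 9.50 and 9.49 with miR-NC and 7.76, 7.93 and 7.58 with miR-7, 3.36-fold lower (log2 fold change -1.75, standard error 0.093, adjusted p = 5.04e-06). RDX, which encodes radixin, a linker of actin to the membrane, stood at 9.52, 9.50 and 9.46 with miR-NC and 7.74, 7.83 and 7.73 with miR-7. It fell by 1.73 (standard error 0.066, adjusted p = 1.50e-06).

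FECH, the ferrochelatase that inserts iron into heme, fell by 1.70, and BTG3, an antiproliferative protein, fell by 1.66 with its second probe at -1.22. GNB4, a G protein beta subunit, fell by 1.63 and TAF5L, a subunit of the PCAF and SAGA acetyltransferase complexes, fell by 1.57, with standard errors of 0.23 and 0.22, well above the median gene's. In both, the second miR-7 array was highest, at 6.37 for GNB4 and 6.66 for TAF5L, and still below the lowest miR-NC array. SLC2A3, the glucose transporter GLUT3, fell by 1.55 and C12orf76 fell by 1.54. PKIA, the alpha inhibitor of protein kinase A, had a larger fall than these, -2.48, but was detected on 2 of 3 miR-7 arrays only. It is the 1 gene past 4-fold, and is named here after its value was seen. Without background correction the changes of dim genes were smaller, such as -1.08 for RSAD2, -0.83 for GNB4, -0.84 for TAF5L and 1.22 for RNF5, and with the authors' log2 values smaller again (-0.79, -0.56, -0.58 and 0.88). None of the 24 largest changes lost its call or its sign under any setting tried. The settings reuse the arrays on which these 24 were picked for large called changes, so that this was nearly set by the choice.

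Some genes were detected on all arrays of 1 group and on none of the other. Of the 9997 genes tested there were 95 such genes with miR-7 and 44 with miR-NC. For these only a bound can be given, the bright group's mean against the dim group's mean with each dim array held at no less than the faintest detected probe of that array. The bound was above 1 for 89 of the 95 genes and for all of the 44. The first miR-NC array had the fewest detected probes, 16034, and the brightest such faintest probe, at 5.69. The part of this in the 95 was not tested. CNRIP1, a protein that binds the cannabinoid receptor CB1, was at least 5.28-fold higher with miR-7, at 5.18, 5.36 and 5.42 with miR-NC and 7.95, 7.97 and 8.03 with miR-7. RNF5P1 was at least 4.52-fold higher, ORAI1, the pore of the store-operated calcium channel, at least 2.18-fold, EXTL3, a glycosyltransferase of heparan sulfate, at least 1.99-fold, and COL27A1, a fibrillar collagen, at least 1.96-fold.

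In the other direction, HSPA1L, a chaperone of the HSP70 family, was at least 2.85-fold lower, at 6.95, 7.07 and 7.03 with miR-NC and 5.54, 5.44 and 5.44 with miR-7. TMEM231, of the ciliary transition zone, was at least 2.45-fold lower, DNAAF11, an assembly factor of ciliary dynein arms, at least 2.20-fold, RAB36, a small GTPase, at least 2.07-fold, and IFT70B, of intraflagellar transport, at least 1.96-fold. The largest bound was thus 5.28-fold among the rises and 2.85-fold among the falls.

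Small nucleolar RNAs had the largest share of rises among the RNA classes compared. They guide the chemical modification of ribosomal RNA, box H/ACA members (SNORA) guiding pseudouridylation and box C/D members (SNORD) methylation, and most lie in introns of host genes. Of 124 snoRNA genes tested, 82 were higher and 1 lower, 66.1% against 20% of all genes, and the median log2 fold change was 0.48 against -0.03. SNORA genes had 47 of 64 higher and 0 lower, and SNORD genes had 35 of 60 higher and 1 lower (SNORD10, -0.26). SNORA57 had the largest change of the class, 2.01, with log2 levels of 6.89, 6.44 and 6.51 with miR-NC and 8.47, 8.73 and 8.69 with miR-7. SNORA33 changed by 1.39, SNORA24 by 1.32 and SNORD104 by 1.15.

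The shift was similar on each miR-7 array. Against the mean of the miR-NC arrays, the median snoRNA gene stood at 0.44, 0.50 and 0.52 on the miR-7 arrays and at -0.07, 0.02 and 0.07 on the miR-NC arrays. The count of higher snoRNA genes was 71 to 82 with each array left out in turn, and 56 to 84 over all settings tried, and the median stayed above 0 in each, at 0.16 to 0.49. snoRNA probes were dimmer than most, with a median log2 level below the 8.46 of all genes, 106 of the 124 were detected on all 6 arrays, and the samples were labelled by a kit made for messenger RNA. The part of either in the shift was not tested. Among the other RNA classes, 29 were higher and 29 lower of 115 long noncoding RNAs, 5 and 0 of 13 snRNAs, 7 and 3 of 25 microRNA genes, and 1854 and 2112 of 9535 protein-coding genes.

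Some transcripts that host snoRNAs, and some factors of ribosome assembly, were higher as well, and hosts were not counted apart. In the list of ribosome biogenesis genes and snoRNA hosts, 10 of 24 tested were higher and 1 lower, and 7 members of that list are on the study's own list. SNHG4 changed by 1.68, SNHG8 by 1.02, and the pre-ribosomal RNA processing factors RRP7A by 1.40 and NOL6 by 0.83. FBL, NOP58 and DKC1, proteins of the snoRNA particles themselves, had values of -0.04, 0.04 and 0.06, none of which passed. Among 66 cytosolic ribosomal proteins 13 (19.7%) were higher, near the 20% of all genes, and 0 lower, with a median of 0.05. That count was 6 with median scaling, 20 with the mean of a gene's probes, and 8 without miR-NC replicate 1, miR-7 replicate 1 or miR-7 replicate 3. RPL22 was well above the rest, at 9.86, 9.98 and 9.82 on the miR-NC arrays and 11.44, 11.40 and 11.48 on the miR-7 arrays (log2 fold change 1.55, standard error 0.072, adjusted p = 2.87e-06), followed by RPL26 at 0.80.

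**Figure D3:**
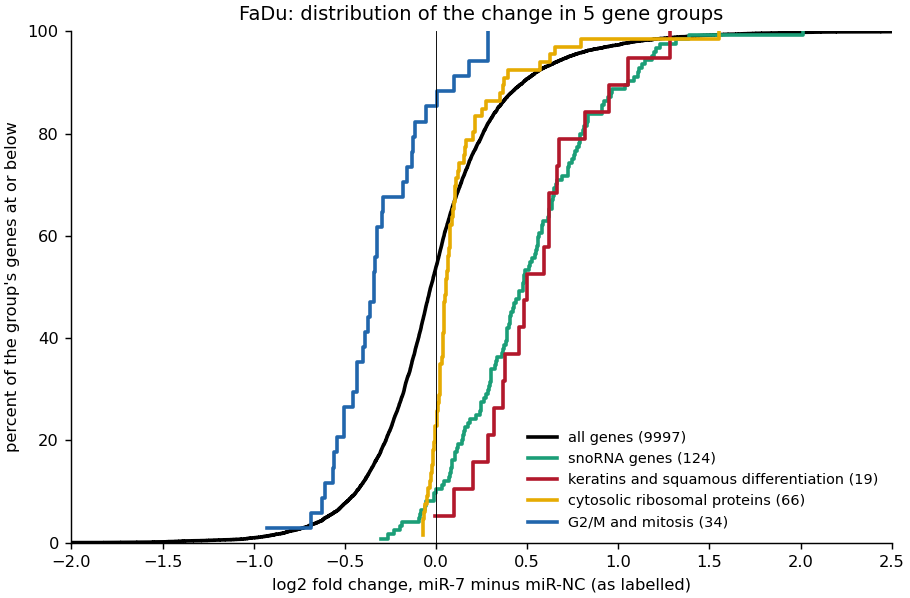
Percent of the genes of 5 groups at or below each log2 fold change (miR-7 minus miR-NC as labelled), for all 9997 genes (black), 124 snoRNA genes (green), 19 keratins and squamous differentiation genes (red), 66 cytosolic ribosomal proteins (yellow) and 34 G2/M and mitosis genes (blue). The snoRNA and keratin curves lie to the right of all genes over most of their length and the G2/M curve to the left, while the ribosomal protein curve is steep around 0.05.

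The gene lists below were chosen with earlier results of these data known. They are described by counts, and some also by medians, beside those of all genes (21.8% lower, 20% higher, median -0.03). Members named beyond the 4 with the smallest p of a list were picked for their known role after their values were seen. Keratins and genes of squamous differentiation were higher as a group. These genes form the filaments and the cornified envelope of stratified epithelium. Of 19 tested, 16 were higher and 0 lower, with a median of 0.50, and 5 of the list's members are on the study's own list. TGM1, the transglutaminase that crosslinks the cornified envelope, stood at 6.01, 6.30 and 6.13 with miR-NC and 7.38, 7.56 and 7.35 with miR-7 (log2 fold change 1.28, standard error 0.095, adjusted p = 2.59e-05). KRT14, a keratin of the basal layer, stood at 8.76, 8.60 and 8.70 with miR-NC and 9.31, 9.39 and 9.40 with miR-7 (log2 fold change 0.68, standard error 0.071, adjusted p = 0.000157), S100A2 rose by 0.82 and KLK6, a kallikrein protease, by 0.62. None of these 4 overlapped between groups, but they were picked for the smallest p, so that the choice favours this. Of all genes, 25% lay above without overlap. S100A8 and KLK5 did not pass, at 0.20 and 0.10.

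The markers of squamous and simple epithelium, which share members with that list, had 9 of 12 higher and 0 lower. Higher members numbered 5 by the methods' t-test, and lower ones 1 with detection on every array and 2 without background correction, with the mean of probes or with the authors' log2 values. Higher were, among others, KRT8 at 0.57 and KRT18 at 0.52. CDH1 (E-cadherin) had a value of -0.21 at an adjusted p of 0.05003, which does not pass, and EPCAM one of -0.16. In the wider list of epithelial junctions 9 of 21 were higher and 4 lower (5 higher with median scaling). ELF3, an epithelial transcription factor, rose by 1.01 and PKP1, a desmosomal plakophilin, by 0.99, whereas CTNNB1, which encodes beta-catenin, fell by 0.94, from 9.68, 9.71 and 9.74 to 8.83, 8.76 and 8.71. Of 15 mesenchymal and EMT factors 4 were higher and 3 lower, with MMP13, a collagenase, at 1.30 and ACTA2, smooth muscle actin, at -0.87, and VIM did not pass at 0.11. Endothelial VWF was detected on 3 of 3 miR-7 and 0 of 3 miR-NC arrays and CDH5 on all 6, at 0.49, while PECAM1, KDR and TEK were not detected.

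Targets of NF-kappaB and cytokines had 11 of 17 tested higher and 3 lower, with a median of 0.49. NF-kappaB is the transcription factor family behind much of the inflammatory response. Besides IL1B, IL1RN, the natural antagonist of the interleukin 1 receptor, stood at 6.28, 6.41 and 5.88 with miR-NC and 8.22, 8.17 and 8.06 with miR-7 (log2 fold change 1.96, standard error 0.13, adjusted p = 1.60e-05). TNFAIP2 rose by 1.34, BCL3 by 1.09 and RELA, the p65 subunit, by 1.08. CXCL8, the neutrophil chemokine interleukin 8, went the other way, at 11.10, 11.05 and 11.02 on the miR-NC arrays and 10.39, 10.35 and 10.51 on the miR-7 arrays (log2 fold change -0.64, standard error 0.072, adjusted p = 0.000212), with IER3 and SOD2 also lower. CXCL2, CCL20, TNF and ICAM1 were not detected.

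Of 11 ErbB receptors, ligands and regulators tested, 7 were higher and 2 lower. The 2 lower were 1 under median scaling, without the detection filter, with the mean of probes, with the authors' log2 values, by the methods' t-test and without miR-NC replicate 2 or 3 or miR-7 replicate 1 or 3. After EGFR and TGFA, the ligand NRG1 rose by 0.84, HBEGF by 0.70 and CBL, the ubiquitin ligase that removes EGFR, by 0.65. LRIG1, a brake on ErbB receptors, stood at 6.22, 6.44 and 6.35 with miR-NC and 6.01, 5.92 and 5.83 with miR-7 (log2 fold change -0.42, standard error 0.085, adjusted p = 0.00486) and ERBB3 fell by 0.28, while ERBB2 rose by 0.34. EREG, at -0.10, did not pass. Among transcripts that follow ERK activity the split was 3 higher and 7 lower of 17. ETV5 fell by 0.82, FOSL1 by 0.73 and DUSP6 by 0.30, EGR1 rose by 0.69, and SPRY4 was detected on 3 miR-NC and 0 miR-7 arrays. MYC and CCND1 stood at -0.02 and 0.01.

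In the Ras and ERK cascade 4 of 11 were higher and 1 lower. ELK1, a transcription factor that ERK phosphorylates, had levels of 7.86, 7.71 and 7.73 on the miR-NC arrays and 9.35, 9.29 and 9.19 on the miR-7 arrays (log2 fold change 1.51, standard error 0.077, adjusted p = 4.20e-06), SRF, its partner on DNA, rose by 0.92, and MAP2K1, which encodes MEK1, fell by 0.73. Of 16 genes of the PI3K, Akt and mTOR core 4 were higher and 2 lower, with 2 higher under median scaling, without the detection filter, by the methods' t-test or without miR-NC replicate 2, miR-7 replicate 1 or miR-7 replicate 2. PIK3CB, a catalytic PI3K subunit, rose by 1.06 and PDPK1, the kinase that activates Akt, fell by 0.70, whereas AKT1 stood at 0.01 and MTOR at 0.13. Among other receptor tyrosine kinases FGFR3 rose by 0.92 and EPHB4 fell by 0.97, from 8.63, 8.41 and 8.53 to 7.73, 7.50 and 7.45, and 14 of 24 with a named probe were not detected.

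Of 13 earlier reported miR-7 targets tested, 7 were higher as labelled and 0 lower (1 lower without background correction, with median scaling or without miR-7 replicate 2), and 4 of the list's members are on the study's own list. After PSME3 and EGFR these were RELA (1.08), PTK2, the focal adhesion kinase (0.69), TNK2, the ACK1 kinase (0.55), SETDB1, a histone methyltransferase (0.47), and RPS6KB1, the S6 kinase (0.23). IRS1, IRS2, YY1, KLF4, MTOR and XRCC2 did not pass, with log2 fold changes of -0.40 to 0.17.

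Genes of G2 and mitosis were the list with the lowest median, -0.34, and had 23 of 34 tested lower and 2 higher. They drive entry into mitosis and the segregation of chromosomes, and are expressed late in the cell cycle. None of them is on the study's own list. AURKA, the aurora A kinase of the spindle poles, stood at 11.90, 11.94 and 11.90 with miR-NC and 11.29, 11.18 and 11.20 with miR-7 (log2 fold change -0.69, standard error 0.066, adjusted p = 9.81e-05). NEK2, a kinase that separates centrosomes, stood at 10.95, 10.94 and 11.13 with miR-NC and 9.95, 10.06 and 10.23 with miR-7 (log2 fold change -0.93, standard error 0.093, adjusted p = 0.00012). KIF20A, a kinesin of cytokinesis, fell by 0.56 and BIRC5, which encodes survivin, by 0.50, with no overlap in any of the 4. PLK1 fell by 0.56, TPX2 by 0.61 and CCNB2 by 0.33. CKS2 and PLK4 rose by 0.28 and 0.29, and CCNB1, CDC20 and KIF11 did not pass, at -0.18, -0.13 and -0.11. With each array left out in turn, 22 or 23 members were lower, and with median scaling 14. The 2 higher were 0 with median scaling and 1 without miR-7 replicate 3. The genes of centrosomal proteins named CEP had 12 of 29 lower and 2 higher, but 7 lower with median scaling, without the detection filter or without miR-7 replicate 3, and CEP55 fell by 0.68.

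Genes of G1, S phase and replication had 10 of 37 higher and 5 lower, with a median of 0.06. Of the list's members, 6 are on the study's own list. The 5 lower were 1 with median scaling, 2 without miR-7 replicate 1 or 2, and 3 without the detection filter or any other array. Besides POLE4, the histone-fold partner POLE3 rose by 1.74, CCND2 by 1.61, CCNE1 by 1.01 and CHEK1, the checkpoint kinase, by 1.09, while RRM2 fell by 0.91. The helicase subunits MCM2 to MCM7 did not pass, with values of -0.13 to 0.18, nor did PCNA at -0.21.

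Promoters of late cell cycle genes often carry the CHR element, through which the DREAM and MuvB complexes act, and CCAAT boxes, bound by NF-Y. These letters were searched in the 300 bases from 250 before to 50 after each gene start (RefSeq, GRCh38.p14), on both strands and with overlaps allowed. TTTGAA, the CHR letters, occurred in the promoters of 12 of 19 lower G2/M genes, of 5 of 8 that did not pass and of both that rose, against 13.9% of all genes tested with a promoter in the table and 18.2% of all promoters. CCAAT occurred in 16 of 19 lower G2/M genes, against 44.5% of all genes tested and 39.7% of all promoters. Over the genome the letters TTTGAA were in 15.9% of promoters of lower genes (286 of 1803), in 190 of 1590 of higher genes and in 13.7% of genes not called. The list is thus rich in these letters whether its members fell or not. The 3 lower members with the smallest p whose window before the gene start holds TTTGAA are shown with both motifs in capitals, up to the start for ANLN and HMMR and around that motif for DLGAP5, from chr7:36389802-36389861 (plus strand), chr5:163460570-163460631 (plus strand) and chr14:55191649-55191734 (minus strand).
ANLN: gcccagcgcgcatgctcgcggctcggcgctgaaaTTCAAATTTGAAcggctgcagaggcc
HMMR: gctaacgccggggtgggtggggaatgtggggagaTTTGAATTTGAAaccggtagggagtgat
DLGAP5: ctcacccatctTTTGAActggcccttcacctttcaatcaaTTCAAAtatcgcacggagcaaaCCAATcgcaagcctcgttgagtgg

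ANLN, the actin binder of the cleavage furrow, fell by 0.63, HMMR, a spindle protein, by 0.54 and DLGAP5, a kinetochore fiber protein, by 0.45. In ANLN and HMMR the letters stand as a pair next to each other just before the start.

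Interferon-induced genes moved both ways. Of 36 tested 14 were lower and 5 higher (3 higher by the methods' t-test), with a median of -0.06. Interferons switch these antiviral genes on through the ISGF3 complex of STAT and IRF proteins. IFIT3 stood at 10.69, 10.81 and 10.46 with miR-NC and 9.21, 9.30 and 9.28 with miR-7 (log2 fold change -1.39, standard error 0.095, adjusted p = 1.84e-05) and IFIT2 at 10.55, 10.75 and 10.68 with miR-NC and 9.74, 9.66 and 9.78 with miR-7 (log2 fold change -0.93, standard error 0.077, adjusted p = 4.39e-05). With RSAD2, OASL fell by 0.89, HERC5 by 0.76 and IFIH1, the RNA sensor MDA5, by 0.50. IRF7, the master regulator of interferon production, rose by 0.68, from 8.11, 8.06 and 8.22 to 8.90, 8.72 and 8.80, and OAS1, OAS2 and XAF1 rose by 0.63, 0.48 and 0.43. Other classical members such as MX1, IFI6, IFI27 and IFITM1 did not pass, with values of 0.02, 0.09, -0.01 and 0.00. Interferon genes IFNB1 and IFNL1 were not detected.

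The ISRE, to which ISGF3 and other IRF proteins bind, was searched as its 9-letter core TTTCNNTTT in the same 300-base windows and on both strands. It occurred in 12 of 12 lower interferon genes with a promoter in the table, 2 of 2 higher and 11 of 15 that did not pass, against 10.1% of all genes tested and 12.6% of all promoters. It was in 9.60% of promoters of all lower genes and 10.4% of all higher genes. The windows around the core nearest the start are shown for the 3 lower members with the smallest p that hold it, with the core letters in capitals, from chr10:89327835-89327923, chr2:6877612-6877700 and chr4:88457005-88457093, all on the plus strand.
IFIT3: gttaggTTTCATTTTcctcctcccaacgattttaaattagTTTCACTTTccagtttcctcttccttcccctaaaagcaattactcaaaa
RSAD2: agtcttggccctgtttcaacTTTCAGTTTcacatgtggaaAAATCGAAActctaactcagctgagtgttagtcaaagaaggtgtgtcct
HERC5: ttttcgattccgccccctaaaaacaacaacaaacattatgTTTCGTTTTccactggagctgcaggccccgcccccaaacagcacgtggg

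Genes of sterol and fatty acid synthesis had 13 of 28 tested lower and 4 higher, with a median of -0.20. Of the list's members, 5 are on the study's own list. SREBP factors drive most genes of this synthesis when sterols run low. The letters of 1 sterol response element to which SREBP binds, TCACCCCAC, were in 1 of 26 of these promoters and 0 of the 12 of lower genes (300 bases, both strands), against 0.543% of all genes tested and 0.535% of all promoters. LSS, lanosterol synthase, stood at 9.50, 9.35 and 9.35 with miR-NC and 8.66, 8.57 and 8.55 with miR-7 (log2 fold change -0.81, standard error 0.075, adjusted p = 8.06e-05), ACLY, which makes cytosolic acetyl-CoA, stood at 11.48, 11.38 and 11.42 with miR-NC and 10.63, 10.70 and 10.74 with miR-7 (log2 fold change -0.74, standard error 0.068, adjusted p = 7.47e-05), and IDI1, HMGCS1 and SQLE fell by 0.86, 0.66 and 0.62. The 4 higher members were TMEM97 (1.06), ACSL4 (1.08), DHCR7 (0.97) and SCAP, the escort of SREBP (0.82). FASN, INSIG1 and SREBF2 did not pass, at 0.08, 0.08 and 0.03.

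Further lists held more falls than rises. FOXO-induced transcripts had 8 of 14 lower and 2 higher, and 5 lower with median scaling, without the detection filter, by the methods' t-test or without miR-NC replicate 2. CITED2, a transcriptional coregulator, stood at 7.82, 7.78 and 7.78 with miR-NC and 6.73, 6.64 and 6.96 with miR-7 (log2 fold change -1.02, standard error 0.09, adjusted p = 6.27e-05), KLF6 fell by 0.78, CCNG2, detected on 1 of 3 miR-7 arrays, had a value of -1.64, and TRIB1 rose by 0.92. NRF2 targets, the genes of the oxidant response, had 9 of 19 lower and 1 higher. That count of 9 was 3 with median scaling, 4 without the detection filter or without miR-NC replicate 2, and 5 without any 1 of the miR-7 arrays. AKR1C3 fell by 0.72, HMOX1 by 0.49 and ABCC3 by 0.42, whereas NQO1, a classical member, rose by 0.65, from 11.93, 11.84 and 11.90 to 12.50, 12.52 and 12.59.

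Heat shock proteins and chaperones had 10 of 25 lower and 1 higher. Lower members numbered 6 with median scaling, and higher ones 2 by the methods' t-test or without miR-NC replicate 2 and 3 without background correction or with the authors' log2 values. HSPA1A, the inducible HSP70, stood at 12.46, 12.20 and 12.47 with miR-NC and 11.70, 11.66 and 11.56 with miR-7 (log2 fold change -0.74, standard error 0.091, adjusted p = 0.000351), DNAJB1, its HSP40 partner, fell by 0.82 and BAG3 by 0.61, while CDC37, the kinase-specific partner of HSP90, rose by 0.92. The unfolded protein and amino acid stress list had 11 of 29 lower and 4 higher (2 higher with median scaling). Its count of 11 was 5 with median scaling, 6 without the detection filter, miR-NC replicate 3 or miR-7 replicate 2, and 7 by the methods' t-test or without miR-NC replicate 2, miR-7 replicate 1 or miR-7 replicate 3. It held PPP1R15A at -0.68, DNAJB9 at -0.57, ATF5 at 1.26 and the heme-regulated kinase EIF2AK1 at 1.57. Glycolysis and hypoxia had 11 of 30 lower and 2 higher, with HIF1A at -0.71, BNIP3 at -0.63 and ALDOC at 1.16, while GAPDH and ENO1 each stood at 0.01.

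Lysosomal and sphingolipid genes had 10 of 27 lower and 5 higher, and 6 lower without the detection filter, without miR-7 replicate 2 or without miR-7 replicate 3. With GALC, the cathepsin CTSZ fell by 1.04 and the cholesterol transporter NPC1 by 0.63, and SCARB2, a receptor of lysosomal membranes, rose by 1.46, ATG7 by 1.19 and SGPL1 by 1.02. Secretory transport had 14 of 42 higher and 3 lower, with SNAP29 (1.84), VAMP8 (1.76), VPS26A (1.71) and AP3M1 (1.52) at the top. The list's median was 0.02. The 3 lower were 5 without background correction and 6 with the authors' log2 values, and 10 of its members are on the study's own list, which was chosen on these arrays. In small RNA machinery, 6 of 25 were higher and 5 lower, near the shares of all genes, and 3 each with median scaling. DICER1, which cuts microRNA precursors, stood at 11.24, 11.32 and 11.24 with miR-NC and 10.41, 10.47 and 10.37 with miR-7 (log2 fold change -0.85, standard error 0.066, adjusted p = 3.36e-05), CNOT8, a deadenylase, rose by 1.57, and AGO1, AGO2 and AGO3 did not pass, with values of 0.15, -0.14 and -0.14.

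Zinc transporters and metallothioneins had 8 of 21 higher and 3 lower. The 3 lower were 1 with median scaling, without the detection filter, by the methods' t-test or without miR-NC replicate 1, miR-NC replicate 2 or miR-7 replicate 1. SLC39A11 and SLC39A3 are zinc importers of the ZIP family. SLC39A11, detected on 3 of 3 miR-7 arrays and 1 of 3 miR-NC arrays, stood at 5.49, 5.44 and 5.71 with miR-NC and 8.07, 8.02 and 7.86 with miR-7 (log2 fold change 2.44, standard error 0.094, adjusted p = 1.56e-06) and SLC39A3 at 8.65, 8.55 and 8.46 with miR-NC and 10.37, 10.46 and 10.35 with miR-7 (log2 fold change 1.84, standard error 0.076, adjusted p = 2.05e-06), with wide gaps between groups. SLC39A14, another ZIP transporter, fell by 0.51. Metallothioneins MT1E, MT1X and MT2A rose by 0.58, 0.46 and 0.23 and MT1F fell by 0.27, and the metallothioneins are close copies of each other, so that probes may read several of them.

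Chromatin remodelling and Polycomb genes had 10 of 26 higher and 3 lower, with a median of 0.03. The 3 lower were 5 without miR-NC replicate 2, 6 without background correction and 7 with the authors' log2 values. After SMARCD1, KMT5A, the methyltransferase of histone H4, stood at 7.75, 7.57 and 7.69 with miR-NC and 9.59, 9.34 and 9.23 with miR-7 (log2 fold change 1.72, standard error 0.1, adjusted p = 8.41e-06). EED, a core subunit of Polycomb complex PRC2, rose by 1.06 while PHC2, of PRC1, was detected on miR-7 arrays only. PHC1 fell by 0.45 and the DNA methyltransferase DNMT3B by 0.93. In Notch and Wnt signaling 9 of 22 were higher and 4 lower (2 lower with median scaling, by the methods' t-test or without miR-7 replicate 3). The list's median was 0.03, and the receptors split. NOTCH2 rose by 1.03 and NOTCH3 by 0.85, NOTCH1 fell by 0.41, the ligand JAG2 rose by 0.78 and the ligand DLL1 fell by 0.51. The coactivator MAML1 rose by 1.06 and the Notch target HES1 fell by 0.24.

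Adhesion genes had 8 of 24 higher (33.3%, against 20% of all genes) and 6 lower (25%, near the 21.8% of all genes). Lower members numbered 3 with median scaling or without miR-7 replicate 2, and 5 of the list's members are on the study's own list. The integrin subunits ITGA6, ITGA5 and ITGA2 fell by 0.81, 0.58 and 0.38, and SDC4, a heparan sulfate coreceptor, and ZYX, which encodes zyxin of focal adhesions, rose by 1.09 and 1.06. Of 21 YAP and SRF targets and regulators, 4 were higher and 5 lower (3 lower by the methods' t-test), near the shares of all genes. CCN2, the matrix-associated growth factor CTGF, fell by 0.89 and CCN1 by 0.38, whereas CNN3, an actin-binding calponin, stood at 9.70, 9.75 and 9.56 with miR-NC and 11.40, 11.36 and 11.23 with miR-7 (log2 fold change 1.66, standard error 0.081, adjusted p = 3.65e-06) and VGLL4, a competitor of YAP, rose by 1.45. TGF-beta and BMP signaling had 5 of 16 higher (3 by the methods' t-test) and 1 lower, with a median of -0.02. The 1 lower was 0 by that test or without miR-NC replicate 2, miR-7 replicate 1 or miR-7 replicate 3, 2 with the authors' log2 values, 3 without background correction and 4 without miR-NC replicate 1. The list held the BMP antagonist NBL1 at 1.23 and ID1 and ID3 on opposite sides, at 0.65 and -0.44.

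In the proteasome and ubiquitin list 10 of 37 were higher and 4 lower, with PSME3 far above the other members. The list's median was -0.0034, and 8 of its members are on the study's own list. The 4 lower members, PSMC2, PSMD1, PSMD11 and PSMD12, are subunits of the 19S regulator and fell by 0.23 to 0.31. Lower members numbered 0 with median scaling, 2 without the detection filter or without miR-NC replicate 1, miR-NC replicate 2, miR-7 replicate 1 or miR-7 replicate 3, and 8 with the authors' log2 values. SKP1, of the SCF ubiquitin ligases, rose by 1.91, UBE3C by 1.31 and the conjugating enzyme UBE2D4 by 1.24. Translation initiation gave a contrast within 1 complex. EIF2S1, the alpha subunit of eIF2, stood at 9.27, 9.43 and 9.19 with miR-NC and 8.12, 7.95 and 8.16 with miR-7 (log2 fold change -1.22, standard error 0.089, adjusted p = 2.48e-05) and EIF2S3, the gamma subunit, rose by 1.76, in a list with 6 of 26 higher and 3 lower. The 6 higher were 3 with median scaling, 10 without background correction and 11 with the authors' log2 values, and the 3 lower were 1 with median scaling, without the detection filter, with the replicate block or without miR-NC replicate 1, miR-NC replicate 3, miR-7 replicate 1 or miR-7 replicate 2.

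RAB GTPases had 7 of 28 higher (25%) and 6 lower (21.4%), near the shares of all genes. Higher members numbered 2 with median scaling and 4 without miR-7 replicate 1. RAB5B rose by 1.05, while RAB8B, RAB18 (-0.83) and RAB23 (-0.62) fell. Splicing factors had 5 of 33 higher (15.2%) and 6 lower (18.2%), all within 2-fold. The 6 lower were 1 with median scaling, without the detection filter or without miR-NC replicate 2, miR-7 replicate 1 or miR-7 replicate 3. Leaving out miR-7 replicate 2 gave 3 lower and 3 higher. In MHC class I presentation 3 of 15 were higher, the same 20% as among all genes, and 2 lower (0 to 4 lower over all settings tried), with a median of -0.05. The peptide transporter subunit TAP2 stood at 1.11 and the peptidase ERAP2 at -0.36.

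Lists near the share of all genes gave single members that moved. In the BCL2 family PMAIP1, which encodes the killer protein NOXA, fell by 1.39 (adjusted p = 4.38e-06), from 8.66, 8.60 and 8.67 to 7.33, 7.17 and 7.26, against the rise of BCL2L12, and CASP9 rose by 1.05. The p53 targets had 5 of 17 lower and 3 higher. The 5 lower were 2 with median scaling or without miR-NC replicate 3 or miR-7 replicate 1, and 3 without the detection filter, miR-NC replicate 1, miR-7 replicate 2 or miR-7 replicate 3. The 3 higher were 0 without the detection filter, by the methods' t-test or without miR-NC replicate 1 or 2, and 1 with median scaling, the replicate block or without miR-7 replicate 2 or 3. Among them stood GDF15 at -0.58, and CDKN1A did not pass at -0.11. The respiratory chain was the quietest of the lists of 20 or more tested genes, with 3 of 30 higher and 1 lower. The 3 higher were 1 with median scaling, without the detection filter or without miR-NC replicate 2 or miR-7 replicate 1, and the 1 lower was 0 under most settings and 4 with the authors' log2 values. The higher counts of 2 in the CEP, FOXO and glycolysis lists were 1 in at least 1 setting each, and the lower count of 1 in the ribosome biogenesis list was 0 with median scaling or without miR-NC replicate 2, miR-7 replicate 2 or miR-7 replicate 3. Of 13 housekeeping controls tested, 2 were higher and 2 lower (0 to 3 lower over all settings tried). TUBB stood at 0.41, TFRC at 0.31 and POLR2A at -0.34, while GAPDH, ACTB and TBP had values of 0.01, -0.05 and 0.03.

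**Figure D4:**
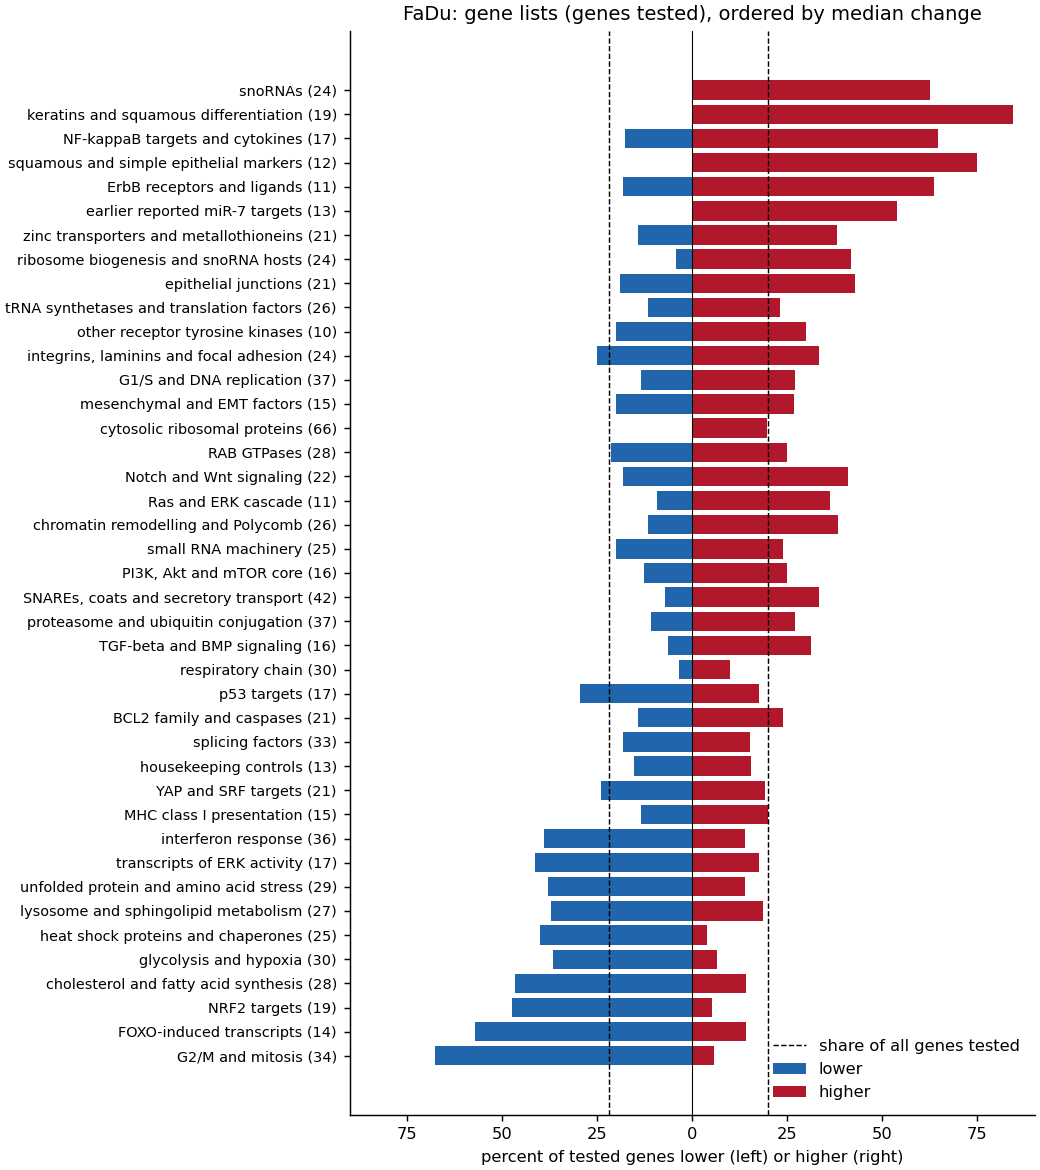
Percent of each list's tested genes that were lower (blue, left) or higher (red, right) with miR-7 as labelled at an adjusted p under 0.05, for the lists with 10 or more tested genes, ordered by median log2 fold change. Dashed lines mark the 21.8% lower and 20% higher of all 9997 genes, and the numbers in brackets are the genes tested.

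Genes with several probes gave a check within the arrays, although probes of 1 gene share the samples. Among genes with 2 or more detected probes, 422 of 460 called higher and 562 of 615 called lower had all probes on the same side of 0. Over all such genes, called or not, this held for 1920 of 2528. A second probe was called the same way in 317 of the higher and 386 of the lower genes, and the other way in 5 and 13.

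The change in FaDu was set against that in HN5 for the 8441 genes whose FaDu probe was also kept on the HN5 arrays, each line being normalized and tested apart. As labelled, it differed at an adjusted p under 0.05 in 1260 genes (14.9%), of which 651 were above HN5 and 609 below, and in 1231 of the 1260 the signs were opposite. With the FaDu labels exchanged, a setting added after the data were seen, it differed in 11 genes (802 at an unadjusted p under 0.05). Of the 1260 genes, 8 differed in that setting and 29 had opposite signs. EGFR changed by 1.57 in FaDu and by -1.67 in HN5, a difference of 3.24 (standard error 0.19, adjusted p = 0.000287, from moderated standard errors of limma). With the labels exchanged that difference was 0.09 (adjusted p = 0.876). POLE4 differed by 5.58, at 3.31 in FaDu and -2.27 in HN5, and by -1.03 with the labels exchanged (adjusted p = 0.233). RSAD2 differed by -4.63, at -1.83 and 2.80, and by -0.97 with the labels exchanged (adjusted p = 0.180). None of the 24 named genes with an HN5 value differed in that setting, which does not show that they change alike. RAB8B was below 0 in both lines, at -1.93 and -0.48, with a difference that did not pass (adjusted p = 0.517). GALC and TAF5L were not tested in HN5. The count of 1260 also rests on the HN5 arrays, of which there are 2 per precursor. It was 79 without HN5 miR-NC replicate 1, 89 without HN5 miR-NC replicate 2, 2537 without HN5 miR-7 replicate 1 and 1562 without HN5 miR-7 replicate 2, each leaving 1 array in a group that is assumed to vary like the other group.

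**Figure D5:**
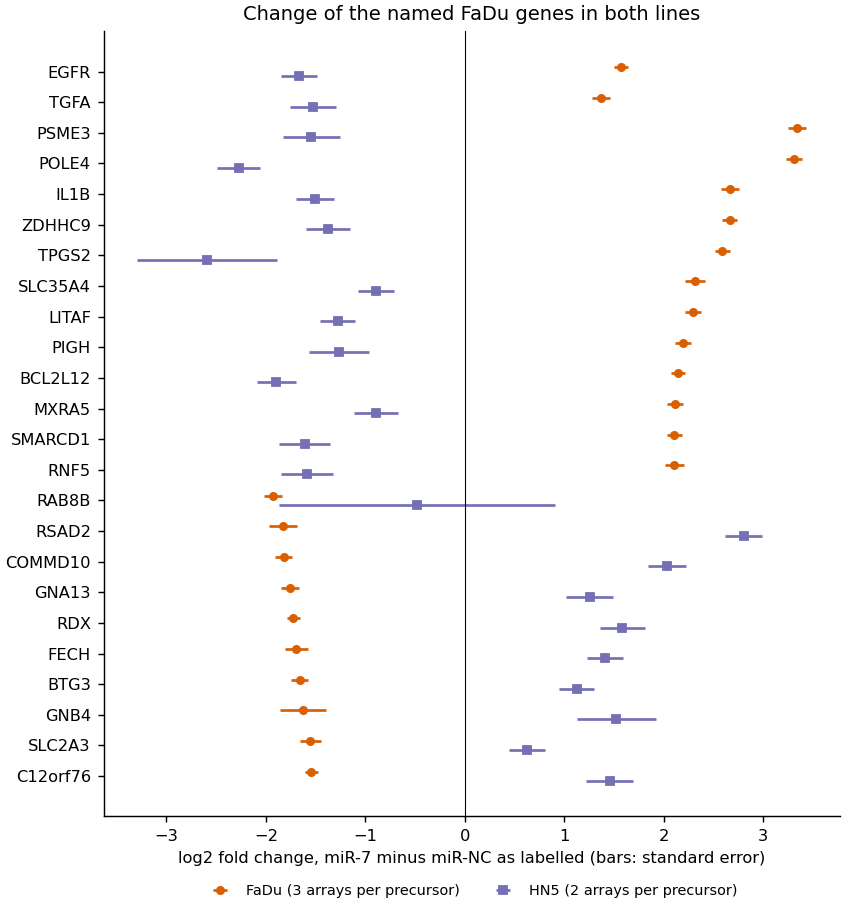
Log2 fold change (miR-7 minus miR-NC as labelled, bars are standard errors) of EGFR, TGFA and the 22 genes with the largest changes in FaDu that were also tested in HN5 (orange circles, 3 arrays per precursor) beside the same probe in HN5 (purple squares, 2 arrays per precursor). As labelled, all of the 24 genes shown but RAB8B lie on opposite sides of 0 in the lines, and exchanging the FaDu labels would mirror the orange circles about 0.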

How the data were processed

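Total RNA of the FaDu cultures was extracted with Trizol and RNeasy columns with DNase, amplified and biotin-labelled with the Ambion MessageAmp kit, and hybridised to Illumina HumanHT-12 v4 arrays (HN5 to Human-6 v3). Groups were taken from the sample titles.

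The probe intensity values were deposited as scanned, with no background correction or normalization seen in them. The detection p-values were deposited as 1 minus p, and were turned before use. The authors' own log2 values were made with lumi (R 2.11.0, variance-stabilizing transformation) and quantile-normalized in Partek. The log2 values deposited by the authors did not follow the probe identifiers beside them (Spearman correlation with intensity 0.010 to 0.014), and were read in the probe order of the intensity table, one array after another, which gave a correlation of 1 on each array. They served as an alternative only.

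Intensities were background-corrected with neqc from limma 3.58.1 in R 4.3.3 (negative controls inferred from detection p-values, offset 16), quantile-normalized and set on the log2 scale per line. A probe was kept where it was detected (p under 0.01) throughout at least 1 group, and the brightest probe stood for a gene. Groups were compared with lmFit and eBayes without a block, with Benjamini-Hochberg adjustment and a threshold of 0.05. Probes were named from GEO's platform annotation, updated through RefSeq (30073 of 30112). The procedure was tested on simulated data.

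Named were EGFR and TGFA, followed in the study by RT-qPCR, the 12 largest rises and the 12 largest falls among genes detected on all 6 arrays with groups that did not overlap, the 5 largest bounds each way, and up to 4 members with the smallest p of each gene list. The genes, lists and tests were chosen with earlier results of these data known. Alternatives were no background correction, median scaling, no detection filter, detection on every array, the mean of a gene's probes, the authors' log2 values, the methods' t-test, a replicate block, each array left out and, added after the data were seen, the FaDu labels exchanged for the comparison with HN5. Sequences are from RefSeq tables (GRCh38.p14). Genome coordinates of the probes and 3′ untranslated regions were not analysed here, and no seed matches were counted. Not every gene that the study followed is reported here.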

Additional observations from a re-analysis of the deposited data

Results flagged for a closer look

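The results below are those whose change with miR-7 differed between FaDu and HN5 at an adjusted p under 0.05 by a test of the difference itself (FaDu minus HN5 on the log2 scale, from limma's moderated standard errors). There were 1260 such genes of 8441 as labelled, and 11 with the FaDu labels exchanged. All values here follow the FaDu labels, to which the study's own direction of EGFR is opposite. EGFR differed by 3.24 and its ligand TGFA by 2.89, both above 0 in FaDu and below 0 in HN5.

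The largest rises and falls were chosen by their FaDu change, which is also part of the difference, so that the choice itself favours large differences. Of the 12 largest rises in FaDu, 12 differed from HN5. The difference was 4.88 for PSME3, 5.58 for POLE4, 4.17 for IL1B, 4.04 for ZDHHC9 and 5.18 for TPGS2. It was 3.21 for SLC35A4, 3.57 for LITAF, 3.46 for PIGH and 4.04 for BCL2L12. It was 3.00 for MXRA5, 3.72 for SMARCD1 and 3.69 for RNF5. In HN5 each of these 12 was below 0. With the FaDu labels exchanged 0 of the 12 differed, and the differences ran from -1.79 (PSME3) to 0.0032 (TPGS2).

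Of the 12 largest falls in FaDu, 9 differed from HN5, 2 (GALC and TAF5L) were not tested there and RAB8B did not pass. The difference was -4.63 for RSAD2, -3.85 for COMMD10, -3.01 for GNA13, -3.31 for RDX and -3.10 for FECH. It was -2.78 for BTG3, -3.15 for GNB4, -2.18 for SLC2A3 and -3.00 for C12orf76. In HN5 each of these 9 was above 0. With the FaDu labels exchanged 0 of the 9 differed, with differences of -0.97 (RSAD2) to 0.93 (SLC2A3). The lines were run on different array types, so that line and array type cannot be told apart.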

How the results depend on the processing

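With median scaling 1221 FaDu genes were higher at an adjusted p under 0.05, and 782 differed between FaDu and HN5. With the FaDu labels exchanged, an alternative chosen after seeing the data, 11 differed between the lines. With the methods' t-test 708 genes differed between the lines, and in FaDu 1547 were lower and 1518 higher after Benjamini-Hochberg adjustment, or 525 and 719 at the methods' own threshold. By the study's thresholds the counts were 205 lower and 385 higher without background correction, and 129 and 288 with the authors' log2 values. The cause was not tested. With each array left out in turn, 1626 to 1917 FaDu genes were lower and 1655 to 1817 higher, 524 to 577 and 725 to 785 at the study's thresholds, EGFR changed by 1.53 to 1.60, and 79 to 2537 genes differed between the lines, the extremes without HN5 miR-NC replicate 1 and HN5 miR-7 replicate 1. The same replicate numbers occur in both groups, but same-numbered FaDu arrays did not deviate together from their group means (correlations 0.057, -0.032 and 0.028). With the number as a replicate block 2016 genes were lower and 1895 higher, 531 and 728 at the study's thresholds, EGFR changed by 1.57 (limma adjusted p = 0.000136), and 863 genes differed between the lines. Of 3132 values of single genes under the alternatives none changed sign, 54 lost their call and 125 moved otherwise. The authors' values and the mean of probes were not run for the difference between lines, and the planned seed matches were not run. Dim probes, near the background, limit the size of the changes given.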
